A study of Homo sapiens with 7 samples.

Results

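The genes described here are 9 complement genes of the liver: C3, C5, C6, C8A, C8B, C9, C4BPA, CFI and MASP1. They were chosen by symbol from the 22118 named loci on chromosomes 1 to 22, X and Y of the expression table, and each symbol was found in 1 locus. The cells were HepG2, a human liver cancer cell line, freshly cultured, with no treatment named in the labels, and all assays used this line. The data comprised 7 samples with 1 sample per assay, namely RNA-Seq, native MNase-Seq, and ChIP-Seq of the active marks H3K4me3, H3K9ac and H3K27ac and of the repressive marks H3K9me3 and H3K27me3. No assay had a second sample and there was no second condition, so the values below are descriptions and no P value was computed. A single cancer line limits these data as a model of liver, and in bulk cells a lower level in every cell and fewer cells with the transcript cannot be told apart.

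Complement is a set of plasma proteins and cell surface proteins of innate immunity. The classical, lectin and alternative pathways each assemble an enzyme that cleaves C3, and cleaved C3 tags a target surface. A later enzyme cleaves C5, and its larger fragment gathers C6, C7, C8 and C9 into the membrane attack complex, a pore in the target membrane. C4b-binding protein and factor I shut the early enzymes down. Hepatocytes make most of the complement protein in plasma. Among histone marks, H3K4me3 is known from promoters, H3K9ac and H3K27ac from active promoters and enhancers, and H3K27me3 and H3K9me3 from repressed chromatin.

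Expression was given as FPKM, fragments scaled to transcript length and to the mapped total, which is a level per length and can be set side by side between genes. The table had 2 value columns for the 1 RNA-Seq sample, here called run 1 and run 2, and what separates the runs was not given in the sources used here. Nucleosome positions were those called from native MNase-Seq. A position was called marked if a ChIP-Seq peak carried its identifier, and a trivalent nucleosome carried H3K4me3, H3K9ac and H3K27ac and neither of the other marks. The main chromosomes held 14217311 positions, of which 203848 (1.43%) carried at least 1 mark. The lists gave no read counts, so the depth behind a position or an FPKM value is unknown. The authors report more nucleosomes with a histone modification than the peak lists used here hold, and the reason is not known. The lists may therefore not hold every peak that was called, so a position counted as unmarked is one with no peak in them. All coordinates of loci and positions are in hg19, the build named in the labels, and the table gave only the extent of each locus, so exons, introns and UTRs were not told apart here. For comparison, 13289 genes were analysed that had coordinates of their own and 1 symbol.

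The labelled cell type was checked against marker genes. All 6 hepatocyte markers were at an FPKM of at least 1, from 152.2 for TTR to 10011 for ALB, the major plasma albumin. The endothelial markers were all under 1, with 0.693 for CDH5 as the highest of 5. PTPRC, the pan-leukocyte surface phosphatase, was listed at 0 in both runs, and CD163, MARCO and CSF1R of the macrophage list were between 0.0268 and 0.0336. CD14, a macrophage marker that hepatocytes also make, was at 2.53, and CD68 lay in a locus shared with other symbols at 542.5, so its own level is not known from this table. Of 6 markers of stellate cells and fibroblasts, 3 reached 1, namely ACTA2 at 33.9, PDGFRB at 2.0 and COL1A2 at 1.16, while COL1A1, COL3A1 and LRAT were between 0.0646 and 0.182.

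All 9 complement genes were transcribed in HepG2, at levels that spanned 198-fold. Each was at an FPKM of at least 1, where 47.6% of the 13289 analysed genes were. The median of the 9 was 5.0, against 0.583 over all analysed genes and 12.1 over the 6331 genes at 1 or more. They fell into a high group of 4 genes between 29.9 and 297.5 and a low group of 5 genes between 1.51 and 5.0. The high group held the central component, 1 terminal component and both regulators, and the low group held the other terminal components and the lectin pathway protease.

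C3, the component on which all 3 pathways converge, had the highest level. Its FPKM was 305.1 in run 1 and 289.9 in run 2, and its mean of 297.5 stood above 99.2% of the analysed genes. The locus of C3 was on chromosome 19 from 6677755 to 6720676, on the minus strand.

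Of the terminal components, C5 stood far above the others. C5, the precursor of the inflammatory peptide C5a and of the fragment that starts the membrane attack complex, had 75.3 in run 1 and 76.3 in run 2. C6, which binds that fragment, had 1.58 and 1.43 and was the lowest of the 9 genes. The mean of C5 was 50.4 times that of C6, and the runs of both genes lay within a factor of 1.10. C8A, the alpha chain of C8 that inserts into the membrane, had 4.87 in run 1 and 5.13 in run 2. C8B, the beta chain that docks C8 on the growing complex, had 2.57 and 2.72. C5 was 15.2 times C8A and 28.7 times C8B. C9, which polymerises into the pore, had 2.45 in run 1 and 1.65 in run 2. C5 was 37.0 times C9 on the mean of the runs. C9 was the gene whose runs differed most among the 9, by a factor of 1.48, against at most 1.10 for the other 8. A factor at least as large was seen in 47 of the 1539 analysed genes with an FPKM from 1 to under 5 (3.05%), and the median over all genes at 1 or more was 1.04. On the mean of the runs C9 was 0.544 above C6 and 0.596 below C8B, and both differences are smaller than the 0.799 between its own runs, so the place of C9 against C6 and against C8B is not settled beyond that spread. C8B was above C6 by 1.14, more than the runs of either gene differed.

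Both soluble regulators were in the high group. CFI, factor I, the protease that inactivates cleaved C3 and C4, had 110.8 in run 1 and 106.3 in run 2, above 97.4% of the analysed genes. C4BPA, the alpha chain of C4b-binding protein, which is a cofactor of factor I, had 31.1 in run 1 and 28.8 in run 2, above 88.9% of them. MASP1, a serine protease that acts with mannose-binding lectin and ficolins, had 3.71 and 3.66, at the 60.6th percentile. In order of mean FPKM the genes were C3, CFI, C5, C4BPA, C8A, MASP1, C8B, C9 and C6, and the order was the same in both runs. Apart from the pairs with C9, neighbours in this order differed by more than their runs did.

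**Figure D1:**
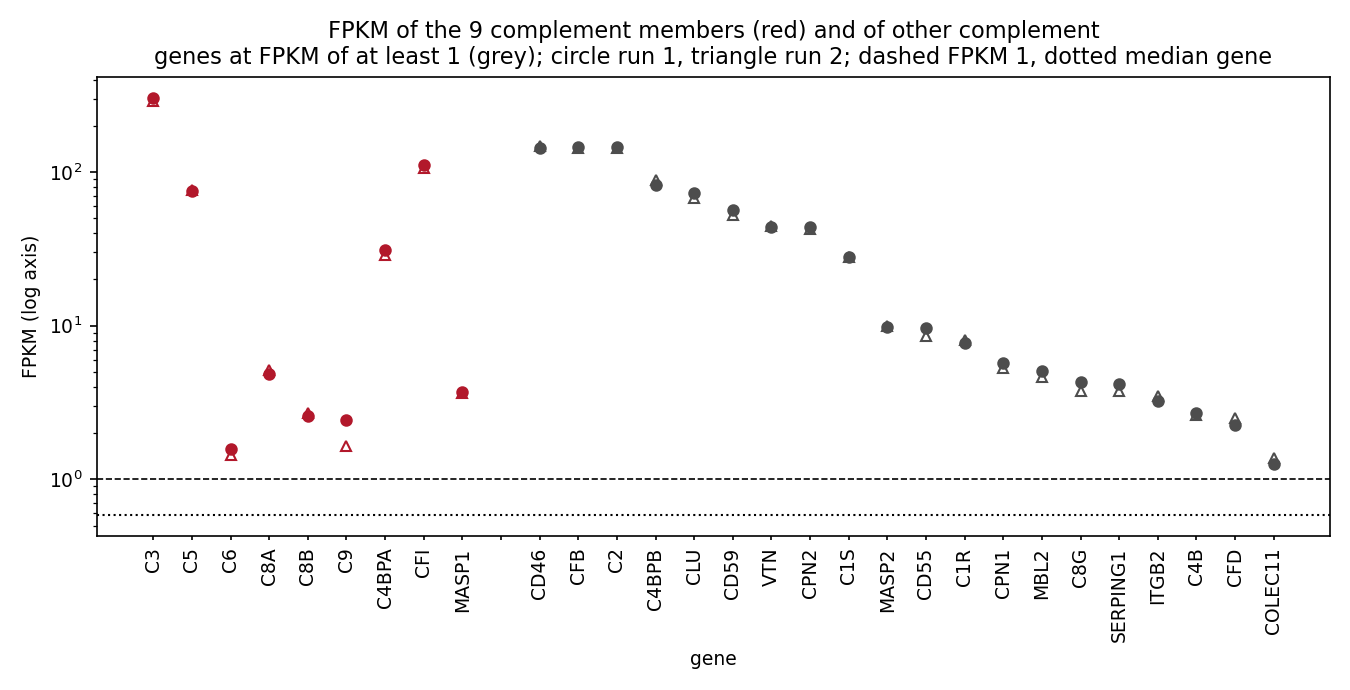
FPKM on a log axis of the 9 complement genes (red, ordered by role) and of 20 other complement genes at an FPKM of at least 1 (grey, ordered by level), with a circle for run 1 and a triangle for run 2; the dashed line is an FPKM of 1 and the dotted line the median analysed gene at 0.583. C3, CFI, C5 and C4BPA lie at 29.9 or above, the other 5 red genes lie between 1.51 and 5.0, and the runs are visibly apart for C9 at 2.45 and 1.65; C2 and CFB have the same values because they share 1 row.

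The rest of the pathway was described from a list of 44 other complement genes, of which 43 were in the table. Of these 23 were at 1 or more, with a median of 1.32 over the 43, where 9 of 9 members were at 1 or more with a median of 5.0. By role, 4 of 7 listed genes of the classical pathway reached 1, as did 3 of 7 of the lectin pathway, 2 of 3 of the alternative pathway, 1 of 2 terminal components, 9 of 12 soluble regulators, 3 of 4 membrane regulators and 1 of 8 receptors. C4A was not analysed here, and C4B, a near-identical copy of it, was listed at 2 loci, the higher of them at 2.67, so reads between C4 copies may be split and this level is uncertain. C2 and CFB, the proteases of the early C3-cleaving enzymes, shared 1 locus row with 145.4, so neither has a level of its own here. That row was counted for each of them, in the 23, in the median and under both roles.

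The subunits of the initiating complexes were uneven. C1R and C1S, the proteases of C1, were at 7.92 and 28, whereas C1QA and C1QC, chains of its recognition subunit, were listed at 0 and C1QB at 0.0204. MBL2, mannose-binding lectin, was at 4.87, MASP2, the protease that cleaves C4 and C2, at 9.86, and COLEC11, another collectin, at 1.32. In comparison, FCN1, FCN3 and COLEC10 were listed at 0 in both runs, and FCN2 was at 0.00546. CFD, the protease that activates factor B, was at 2.38, and CFP, properdin, was listed at 0.

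Among the partners of the terminal components, C8G, the gamma chain of C8, was at 4.03, next to C8A at 5.0 and C8B at 2.64. C7, which joins the complex between C6 and C8, was at 0.479 in run 1 and 0.582 in run 2 and was the 1 terminal component under an FPKM of 1. C4BPB, the beta chain of C4b-binding protein, had 82.7 in run 1 and 88.8 in run 2. It was 2.66 times C4BPA in run 1 and 3.08 times in run 2, so the beta chain was the higher transcript in both runs.

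The soluble regulators CLU, VTN and CPN2 were at 70.5, 44.4 and 43.2, and CPN1 and SERPING1, the C1 inhibitor, at 5.53 and 3.97. On the membrane, CD46, which like C4BPA is a cofactor of factor I, was at 145.8, CD59, which blocks C9, at 54.6 in a row with another symbol, CD55 at 9.14 and CR1 at 0.00832. Among the receptors, ITGB2, in a locus shared with others, was at 3.35, and the other 7 were between 0.00627 for CR2 and 0.145 for ITGAX.

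The loci on chromosome 1 lie as a pair. C8A ran from 57320443 to 57383894 on the plus strand and C8B from 57394883 to 57431722 on the minus strand, so their ends face each other across 10988 bp. C4BPA ran from 207277587 to 207318317 on the plus strand, and its start was 4249 bp after the end of C4BPB. On chromosome 5, C9 ran from 39284378 to 39364655 and C6 from 41142336 to 41261540, both on the minus strand. CFI was on chromosome 4 from 110661848 to 110723335 and MASP1 on chromosome 3 from 186933873 to 187013105, again on the minus strand. C5 was given on chromosome 9 from 123714152 to 123939941, but these coordinates were shared with CEP110, which encodes a centrosomal protein, and with an unnamed locus. The transcription start site (TSS) of C5 is therefore not placed by the table, and counts near the TSS are over the other 8 genes, whose TSS was taken as the listed end on the side of their strand.

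Promoter sequences are shown for the genes whose start regions differ most in the marks described next, with C5 for its pair of start sites. They are RefSeq sequences of GRCh38.p14, from 250 bases before to 50 bases from the start site on, given 5′ to 3′ on the strand of the gene, and were matched by symbol for 8 of the 9 genes with 10 start sites. Their coordinates were not converted to hg19, so no marked position is placed on them. Capitals mark matches, on either strand, to CCAAT, to GTTAATNA (part of an HNF1 site), to TTNNGNAAT (C/EBP) or to TGTTTAC (FOXA), where N is any base.
C5 start 1, chr9:121050226-121050525, minus strand: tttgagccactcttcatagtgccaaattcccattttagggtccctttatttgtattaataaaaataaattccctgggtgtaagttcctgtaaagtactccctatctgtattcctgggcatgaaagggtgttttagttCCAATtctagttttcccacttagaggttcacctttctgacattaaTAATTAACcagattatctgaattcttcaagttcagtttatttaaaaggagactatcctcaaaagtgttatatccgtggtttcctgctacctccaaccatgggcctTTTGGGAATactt
C5 start 2, chr9:121074816-121075115, minus strand: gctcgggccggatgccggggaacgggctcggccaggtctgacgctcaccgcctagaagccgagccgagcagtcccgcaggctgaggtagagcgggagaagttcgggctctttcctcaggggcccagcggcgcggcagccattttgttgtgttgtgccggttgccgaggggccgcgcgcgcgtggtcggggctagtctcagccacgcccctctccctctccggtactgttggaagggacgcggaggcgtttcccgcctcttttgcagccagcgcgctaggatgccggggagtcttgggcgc
C8A, chr1:56854547-56854846, plus strand: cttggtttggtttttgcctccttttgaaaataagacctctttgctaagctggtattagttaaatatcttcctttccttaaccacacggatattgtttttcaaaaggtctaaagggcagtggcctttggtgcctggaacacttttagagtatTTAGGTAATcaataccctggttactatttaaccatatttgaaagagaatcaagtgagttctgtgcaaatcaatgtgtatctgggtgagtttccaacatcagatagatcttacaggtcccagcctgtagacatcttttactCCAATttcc
C8B, chr1:56965966-56966265, minus strand: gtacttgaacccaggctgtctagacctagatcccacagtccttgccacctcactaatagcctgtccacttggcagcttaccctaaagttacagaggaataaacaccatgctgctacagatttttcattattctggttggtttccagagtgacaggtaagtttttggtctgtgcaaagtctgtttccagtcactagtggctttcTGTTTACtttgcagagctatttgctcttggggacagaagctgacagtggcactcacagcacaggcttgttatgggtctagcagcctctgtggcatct
C9, chr5:39364446-39364745, minus strand: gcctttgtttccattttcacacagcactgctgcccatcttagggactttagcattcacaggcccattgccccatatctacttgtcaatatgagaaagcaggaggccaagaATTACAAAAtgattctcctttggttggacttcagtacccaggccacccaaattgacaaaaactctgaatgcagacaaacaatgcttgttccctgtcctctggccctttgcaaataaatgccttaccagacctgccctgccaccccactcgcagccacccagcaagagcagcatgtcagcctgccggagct
C4BPA, chr1:207103983-207104282, plus strand: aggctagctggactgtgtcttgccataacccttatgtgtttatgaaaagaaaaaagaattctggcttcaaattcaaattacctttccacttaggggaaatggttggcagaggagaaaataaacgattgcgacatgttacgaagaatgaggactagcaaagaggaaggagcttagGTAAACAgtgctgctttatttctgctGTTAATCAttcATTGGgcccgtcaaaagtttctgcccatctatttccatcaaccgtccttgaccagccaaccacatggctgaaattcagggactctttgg
CFI, chr4:109801950-109802249, minus strand: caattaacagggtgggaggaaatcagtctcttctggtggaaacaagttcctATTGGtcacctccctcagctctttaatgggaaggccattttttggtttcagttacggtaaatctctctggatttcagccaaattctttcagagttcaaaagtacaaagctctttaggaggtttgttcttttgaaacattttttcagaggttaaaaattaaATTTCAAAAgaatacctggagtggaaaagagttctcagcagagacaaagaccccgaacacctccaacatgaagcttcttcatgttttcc

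All complement promoter windows except the second of C5 held fewer CpG than the median promoter, and C3 had no window. Counts of CpG per 300 bases were 0 in C8B, 1 in C8A, 2 in C9 and CFI, and 5 in C4BPA and MASP1. They were 0 and 3 at the pair of C6 start sites. Over 35116 promoters the median was 14 and the 10th percentile was 1. C5 had 1 at its first start site and 33 at its second, which lies 24590 bp upstream in GRCh38. The GC content of these C5 windows was 37.0% and 69.3%, against a median of 58.7%. In the windows of the other genes it ran from 30.3% at C6 to 53.0% at MASP1. CCAAT was found in 7 of the 10 windows, where 34.6% of all promoters held it, and the C/EBP letters in 6, where 11% did. C6 was counted at both of its start sites for each. The C/EBP, HNF1 and FOXA letters are mostly A and T, and the shares were not adjusted for GC content. The FOXA letters were in 2 windows, C8B at 47 to 41 bases and C4BPA at 76 to 70 bases before the start site, and 3.42% of all promoters held them. The HNF1 letters were in C4BPA from 50 to 43 bases before the start site and in the first C5 window from 68 to 61 bases before it, and 2.43% of all promoters held them. The CCAAT match of C4BPA, 39 to 35 bases before the start site, did not overlap its HNF1 or FOXA matches. No window held TATAAA, CAAAGTCC (HNF4) or TTCNNNGAA (STAT), which 11.5%, 1.20% and 7.66% of all promoters did. A match is only a match of letters, and binding was not measured.

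Within 2 kb of the TSS, most of the complement genes had few trivalent nucleosomes. At least 1 trivalent nucleosome was found at 4 of 8 genes, namely C3, C8A, C4BPA and CFI, where 42.9% of all analysed genes and 84.8% of the genes at an FPKM of at least 1 had one. At least 3 were found at 1 of 8, CFI, where 56.4% of the genes at 1 or more had them. No marked position at all was found at 3 of 8, C6, C9 and MASP1, where 5.78% of the genes at 1 or more had none. No H3K4me3 was found at these 3 and at C8B, 4 of 8 genes, where 7.57% of the genes at 1 or more had none. Neither H3K27me3 nor H3K9me3 was listed near the TSS of any of the 8. Both are rare there, on 0.428% and 0.198% of the 36952 marked positions at genes at 1 or more.

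Summed over the 8 genes, 41 of 159 positions within 2 kb of the TSS were marked, which is 25.8% with an exact Clopper-Pearson 95% interval of 19.2 to 33.3%. Such intervals cover counting error only, and neighbouring positions are not independent. The share was 17.2% over all analysed genes and 31.2% over the genes at an FPKM of at least 1. Pooled over positions, the kinds of marks lay further from those of the expressed genes than their number did. Of the 41 marked positions, 20 (48.8%) had H3K27ac only, against 3.43% of 36952 marked positions at genes of at least 1. These 20 were at C8A, C8B, C4BPA and CFI, and C8A alone held 13 of the 41. C3 had none of the 20, and C6, C9 and MASP1 had no marked position, so the pooled shares do not describe each gene. Trivalent nucleosomes were 22.0% against 51.5%, and H3K4me3 was on 43.9% against 90.8%. H3K9ac was on 41.5% against 73.4%, and H3K27ac on 82.9% against 60.3%. In the 1539 genes with an FPKM from 1 to under 5, marked positions carried H3K4me3 in 88.7% and H3K27ac only in 3.62%. In the 386 genes of at least 100 these shares were 89.7% and 5.63%. Whether expression level plays a part in the members' shares was not tested.

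**Figure D2:**
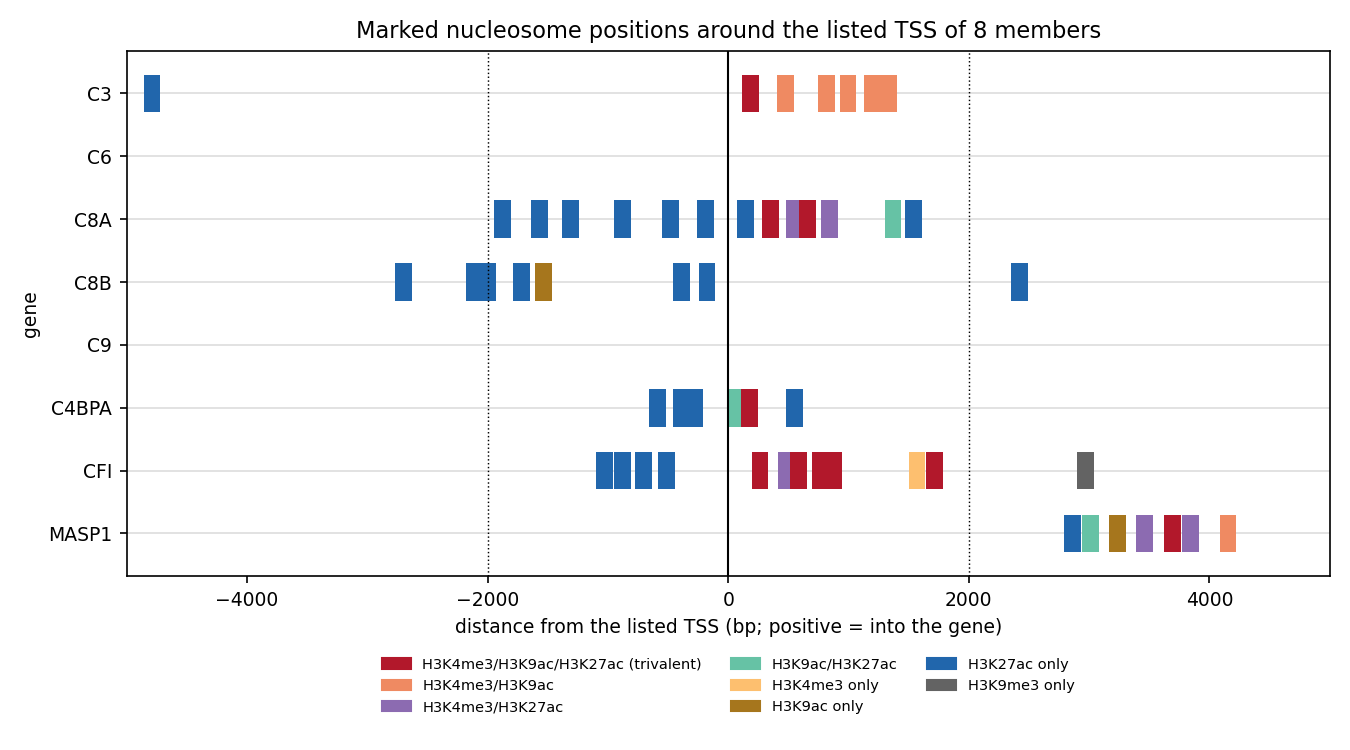
Marked nucleosome positions within 5 kb of the listed TSS of the 8 genes with coordinates of their own, drawn to scale by distance from the TSS in bp and coloured by the exact combination of marks; dotted lines are at 2 kb. At C8A, C8B, C4BPA and CFI most positions with H3K27ac only (blue) lie upstream, with 2 downstream at C8A and 1 each at C8B and C4BPA, the H3K4me3 positions of C3, C8A, C4BPA and CFI all lie downstream, C6 and C9 have no marked position, and the 7 of MASP1 begin 2859 bp inside the gene.

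C3 had a run of 6 marked positions from 183 to 1330 bp downstream of its TSS (6719277 to 6720563) and none upstream within 2 kb. All 6 carried H3K4me3 and H3K9ac, and 1 of them, the nearest to the TSS, also carried H3K27ac. Of the genes at an FPKM of at least 1, 178 of 6331 (2.81%) had at least 6 H3K4me3 positions with at most 1 H3K27ac position, limits set after the values of C3 were seen. C3 was thus at 297.5 with 1 trivalent nucleosome, and 5 of the 887 genes with exactly 1 reached its FPKM (0.564%). Of the 386 genes of at least 100, 52 (13.5%) had at most 1 trivalent nucleosome and the median was 4.

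CFI, next to C3 in level, had the most trivalent nucleosomes and the most H3K4me3 positions near the TSS of the 8. Its 11 marked positions ran from 1031 bp upstream to 1714 bp downstream (110721552 to 110724436). The 4 upstream positions had H3K27ac only, and the 7 downstream positions all carried H3K4me3, 5 of them as trivalent nucleosomes. Among the genes of at least 100, 36.8% had at least 5 trivalent nucleosomes, as CFI did. The positions that flank the TSS of CFI were 560 bp apart, the widest gap of the 8 genes, and 1280 of 6310 genes at 1 or more (20.3%) had a gap at least as wide.

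C4BPA had 6 marked positions from 589 bp upstream to 554 bp downstream (207276929 to 207278211), and all 6 carried H3K27ac. The 3 upstream positions and the last one downstream had H3K27ac only, and 1 of the 2 in between was trivalent. The start of its neighbour C4BPB, with an FPKM of 85.7, had 10 marked positions and 7 trivalent nucleosomes. The genes of the alpha and beta chain therefore differed in the same direction in FPKM and in trivalent nucleosomes, which is a comparison of 1 pair and was not tested.

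C8A had the most marked positions of the 8, 13 of 17, from 1877 bp upstream to 1540 bp downstream (57318497 to 57322053). All 13 carried H3K27ac, 8 had it as the only mark, and the 4 with H3K4me3 lay downstream, 2 of them trivalent. Of the genes at an FPKM of at least 1, 14 of 6331 (0.221%) had at least 13 positions with H3K27ac near the TSS, and the FPKM of C8A was 5.0. C8B, with 5 of 23 positions marked, had no H3K4me3 near its TSS. Its marked positions lay upstream, 4 with H3K27ac only and 1 with H3K9ac only. No H3K4me3 together with at least 4 H3K27ac positions was found at 17 of 6331 genes at 1 or more (0.269%). The limit of 13 was the value of C8A, and the limits for C8B were its own values. Both were set after these values were seen, and 1 of the 4 positions at C8B lay just inside the 2 kb limit.

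At least 4 positions with H3K27ac only near the TSS were counted at 4 of the 8 genes, C8A with 8 and C8B, C4BPA and CFI with 4 each. Among the genes at an FPKM of at least 1 this held for 0.821%, 52 of 6331, and the limit of 4 was set after the members' values were seen. Most of these positions were upstream, 17 of 20 (85%), where 64.1% of 1489 were over all analysed genes. In C8A 6 were upstream and 2 downstream, in C4BPA 3 and 1, and in C8B and CFI all 4 were upstream. The number of genes that reach the limit of 4 depends on the window. The farthest position at C8B lay just inside 2 kb and the farthest at CFI beyond 1 kb, so neither gene had 4 within 1 kb. The share of expressed genes that reach the limit was not counted within 1 kb.

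H3K4me3 lay on the other side. All 18 H3K4me3 positions near the TSS were downstream, 7 at CFI, 6 at C3, 4 at C8A and 1 at C4BPA. Over all analysed genes 73.2% of 37564 were. Of the genes with H3K4me3 near the TSS, 37.9% had every such position downstream, and 36.3% of those at an FPKM of at least 1 did, so the side on its own is common for a single gene.

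C6 and C9 had no marked position among 17 and 22 within 2 kb of the TSS, nor within 5 kb. Among the 4799 genes with no marked position near the TSS, 7.63% had an FPKM of at least 1, and C6 and C9 stood at the 93.2nd and 94.0th percentile of that set. MASP1, at the 95.1st percentile of that set, had no mark among 21 positions within 2 kb, but 7 marked positions from 2859 to 4154 bp downstream (187008882 to 187010316). These 7 held 4 with H3K4me3, 1 of them trivalent, and 5 with H3K27ac. Whether the listed end is the start site in use in HepG2 was not tested.

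The gaps between the positions that flank the TSS were 560 bp in CFI, 398 in C3, 382 in C6, 340 in C4BPA and 331 in C8A. They were 225 bp in C8B, 200 in MASP1 and 198 in C9. The median was 375 bp over genes at an FPKM of at least 1 and 218 bp over genes under 0.1, so C9, MASP1 and C8B lay nearer to the second value although all 3 were above 1. C6, with no mark, had a gap like that of marked members.

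**Figure D3:**
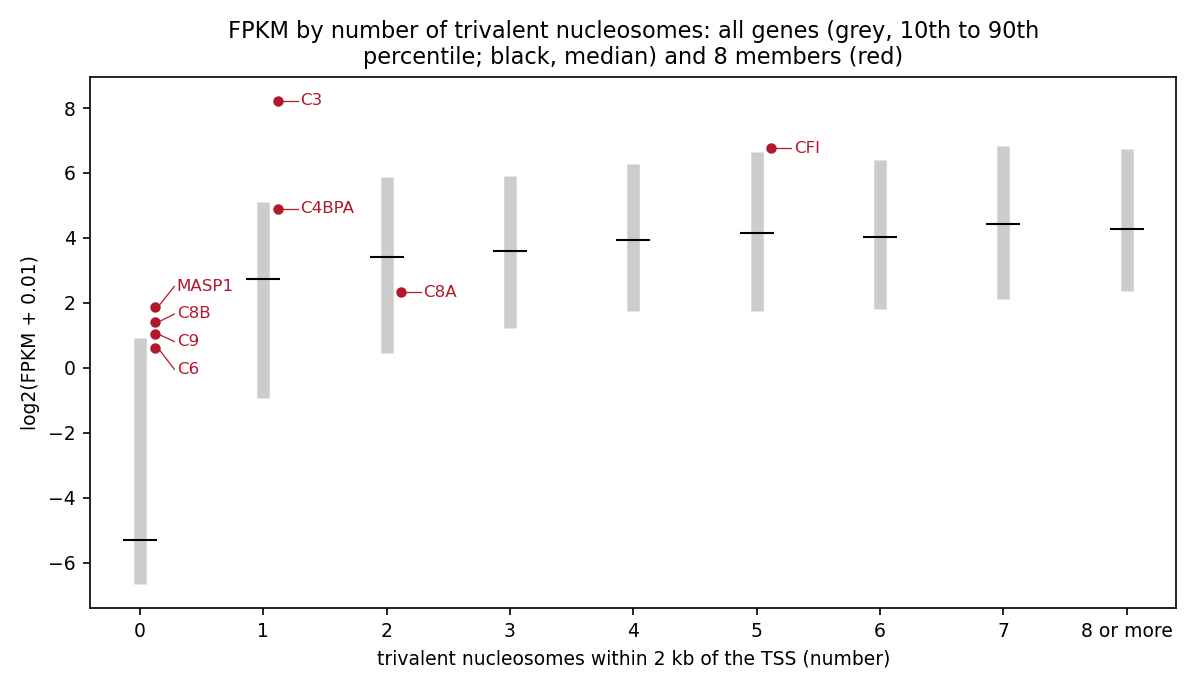
Log2(FPKM + 0.01) against the number of trivalent nucleosomes near the TSS (2 kb), for the 13289 analysed genes (grey bars from the 10th to the 90th percentile, black lines at the median) and for the 8 members (red points). C3 lies above the bar of genes with 1 trivalent nucleosome, CFI just above that of genes with 5, and C9, C8B and MASP1 above that of genes with 0, while C4BPA, C8A and C6 lie within theirs.

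Set against the number of trivalent nucleosomes, 5 of 8 genes were above the 90th percentile of genes with the same number on the mean of the runs and in run 1, and 4 of 8 in run 2, where C9 was under it at 0.73 against 0.93. The log2(FPKM + 0.01) of C3 was 8.22, where the 90th percentile of genes with 1 trivalent nucleosome was 5.11. For CFI these were 6.76 and 6.65 at 5 trivalent nucleosomes. MASP1, C8B and C9, at 1.89, 1.41 and 1.04, were above the 90th percentile of 0.92 over the 7592 genes with none. C6, at 0.60, was under it. The median FPKM of the 7592 genes was 0.01525, and no comparison limited to expressed genes was made. C4BPA, at 4.90, was above the median of its class of 2.72, and C8A, at 2.32, was below that of 3.40.

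Over the loci plus 10 kb on either side, the 9 windows held 4752 positions and 159 marked ones, 3.35% with an exact 95% interval of 2.85 to 3.90%. The same share was 2.05% over the windows of all analysed genes. The windows of the complement genes were long, with a median of 430 positions against 219. The C5 window held 56 of the 159, or 35.2%, and without it the count was 103 of 3468. H3K27ac only was the most frequent kind, 63 of 159 (39.6%), where it was 19.9% of marked positions on the main chromosomes. Trivalent nucleosomes were 15 (9.43%, against 21.0%), H3K9me3 only 20 (12.6%, against 16.4%), and the pair of H3K4me3 and H3K9ac 14 (8.81%, against 7.45%). H3K4me3 only was found on 11 (6.92%, against 11.5%) and H3K27me3 only on 8 (5.03%, against 12.2%).

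**Figure D4:**
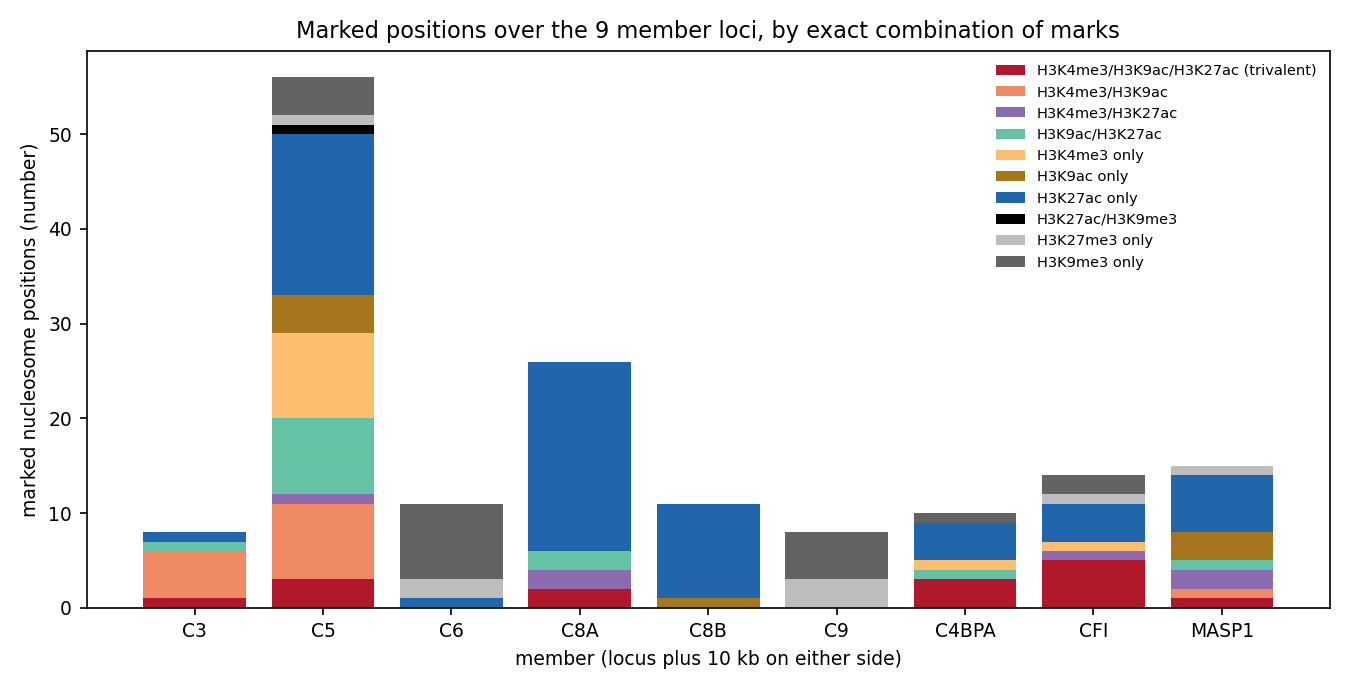
Number of marked nucleosome positions in the locus plus 10 kb of each of the 9 genes, stacked by the exact combination of marks. C5 has the tallest bar at 56 positions, C8A follows with 26 that all carry H3K27ac, and the bars of C6 (11) and C9 (8) are almost wholly H3K9me3 and H3K27me3.

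The windows fell into different kinds. C8A had 26 marked positions, and all 26 carried H3K27ac, as did 10 of 11 in C8B. Besides its start region, C8A had 6 marked positions from 54223 to 56178 bp and 4 from 57208 to 57640 bp downstream, inside its far end, and 9 of these 10 had H3K27ac only. A further 2 with H3K27ac only, from 57385617 to 57385896, lay between the facing ends of C8A and C8B and are in both windows, so the 159 are 157 distinct positions. MASP1 had 10 of 15 with H3K27ac, among them 4 with that mark only in a run of 5 from 18154 to 20094 bp downstream.

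The window of C4BPA held 3 marked positions, 2 of them trivalent, from 48989 to 49530 bp downstream (207326507 to 207327187), which is beyond the end of the gene, so only 1 of its 3 trivalent nucleosomes was at its start. C3 had 8 marked positions, of which the 2 outside the start region lay 4790 and 9530 bp upstream, and the farther one fell in GPR108, a neighbour at an FPKM of 15.6.

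C6 and C9 differed from the other 7 genes in kind. Of 11 marked positions in the C6 window, 8 had H3K9me3, 2 H3K27me3 and 1 H3K27ac. In the C9 window 5 of 8 had H3K9me3 and 3 had H3K27me3. H3K9me3 was thus on 1.16% of 692 positions for C6 (exact 95% interval 0.50 to 2.27%) and on 0.990% of 505 for C9 (0.322 to 2.30%), against 0.167% over the windows of all analysed genes. Over the main chromosomes the share was 0.243%. For a regional reference, the stretch of chromosome 5 from the start of C9 to the end of C6, which also holds C7, had H3K9me3 on 44 of 9983 positions, 0.441% (0.320 to 0.591%). This stretch includes the loci of C6 and C9 themselves, so it is not independent of them. C7, the terminal component at 0.530, had 22 positions with H3K27ac among 26 marked in its window, unlike C6 and C9.

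H3K27me3 was found in 5 of 9 windows, those of C5, C6, C9, CFI and MASP1, where 30.6% of all analysed genes had it. H3K9me3 was found in 5 of 9, those of C5, C6, C9, C4BPA and CFI, where 28.8% did. A longer window has more positions on which a mark can be found, and the counts were not adjusted for length. C3, C8A and C8B had neither mark. At CFI 1 H3K9me3 position lay 2972 bp inside the gene, beyond its run of active marks, and another 8696 bp upstream.

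At C5 the marks fell into separate runs along the 225790 bp that it shares with CEP110. The longest run had 19 marked positions from 126305 to 129985 bp from the listed end (123809887 to 123813706), with H3K4me3 on 15, of which 8 had it alone, and 1 trivalent nucleosome. Next to it, from 123565 to 125295 bp (123814577 to 123816446), 9 positions all carried H3K27ac and none H3K4me3. On the minus strand of C5 that H3K27ac run is upstream of the H3K4me3 run. The same order was seen at CFI and C8A.

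A second run with H3K4me3 had 5 marked positions from 102072 to 103232 bp, 3 of them with H3K4me3 and 1 trivalent, and another run had 4 from 55343 to 56270 bp, again 3 with H3K4me3 and 1 trivalent. The trivalent nucleosomes of the first and second run were 24855 bp apart, and the start sites of C5 in RefSeq are 24590 bp apart in GRCh38. Which run belongs to C5 and which to CEP110 was not tested. CEP110 had 3.6 in run 1 and 3.14 in run 2, against 75.3 and 76.3 for C5. RAB14, which overlaps the window beyond the listed end, was at 34.0, and 5 positions with H3K27ac lay 5870 to 6930 bp beyond that end.

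**Figure D5:**
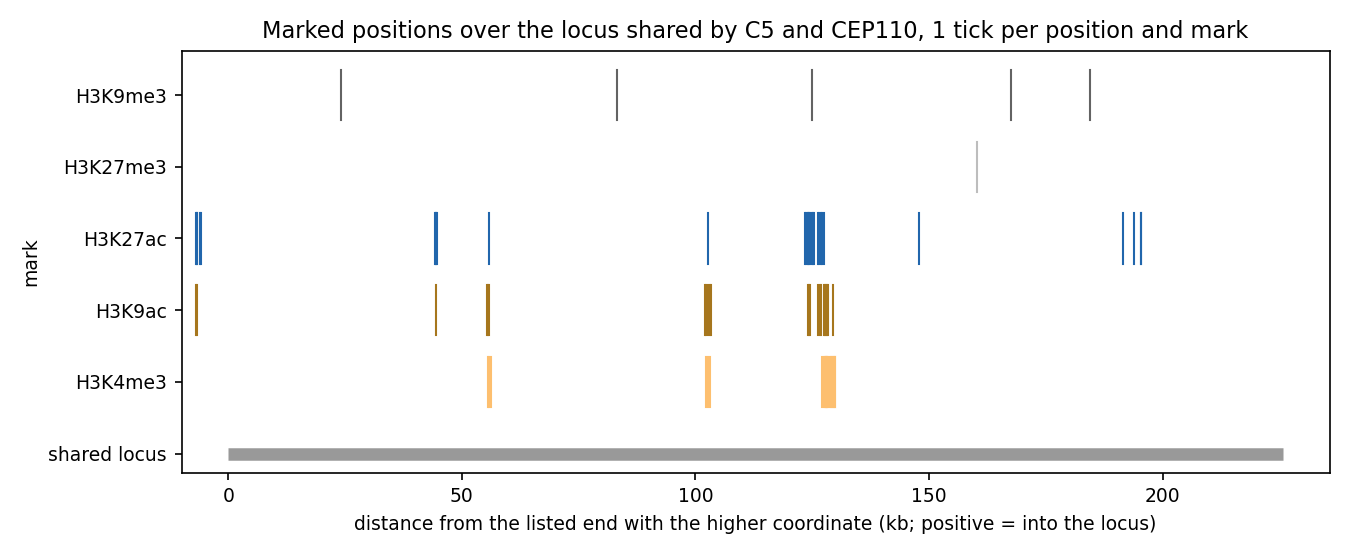
Marked positions in the window of the locus shared by C5 and CEP110, by distance in kb from its end of higher coordinate, with 1 tick per position and mark and the locus as a grey bar of 225790 bp. The H3K4me3 ticks fall in 3 runs, and the longest, from 126305 to 129985 bp, lies beside a run of 9 H3K27ac positions.

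Other secreted liver proteins were set beside the complement genes by counts. Of 12 coagulation factor genes 10 were at an FPKM of at least 1 with a median of 16.7, and of 11 liver serpins 11 were, with a median of 162.0. At least 1 trivalent nucleosome near the TSS was found at 3 of the 5 coagulation genes with their own coordinates and an FPKM of at least 1, at 5 of 6 such serpins and at 9 of 15 such other complement genes, against 4 of 8 members. At least 3 were found at 2 of 5, 4 of 6 and 5 of 15, against 1 of 8. H3K27ac only was on 15.8% of 19 marked positions of the coagulation genes, 28.3% of 46 of the serpins and 25.0% of 68 of the other complement genes, against 48.8% of 41 for the members. The share was above the 3.43% of expressed genes in all 4 lists, and with so few genes these lists cannot be ordered. Every H3K4me3 position was downstream in the members, and 13 of 14, 22 of 26 and 36 of 47 were in the other lists. MBL2 lacked H3K4me3 near its TSS, as C8B did, and its 6 marked positions there all carried H3K27ac and none H3K9ac. At C8B 4 of 5 carried H3K27ac and 1 carried H3K9ac only.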

How the data were processed

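The 7 HepG2 samples were grouped by assay from the labels, with 1 sample each. The submitters' processing notes name hg19 for all samples, BWA for MNase-Seq and ChIP-Seq, and TopHat2 2.1.0, Bowtie, HOMER 4.7 and edgeR, with no roles, for RNA-Seq. The authors called nucleosome positions with DANPOS and ChIP-Seq peaks at those positions with NUCLIZE against input, with P value, false discovery rate and fold thresholds, and deposited coordinates only; a stricter threshold could therefore not be tried. The authors deposited RNA-Seq values as FPKM in 2 columns for 1 sample, here averaged; their fold change, p-value and q-value columns, a comparison of these columns, were not used.

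Each peak was 3 bp longer than a position at either end and was assigned by identifier, which for all 319086 peaks was also the position of largest overlap. Starts were converted to count from 1, and a position was placed by its midpoint. Positions were counted within 2 kb of the TSS and in the locus plus 10 kb, and runs of marked positions joined gaps of up to 1 kb. Strand was inferred from the order of locus numbers, and was the same as in RefSeq for 8405 of 8436 genes (99.6%) and for 8 of 8 members in the RefSeq promoter table, which has no C3. Genes sharing coordinates or symbols were left out of the 13289.

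No test was run, since there was 1 sample per assay, and shares have exact Clopper-Pearson 95% intervals. Counting was tested on simulated data. The genes, lists, limits and windows were chosen with earlier results of these data known. Named are the 9 genes, the other complement genes at an FPKM of at least 1 or beside a member, loci overlapping a window, and markers; complement genes under 1 were named afterwards to complete their roles. Some genes of the list are counted but not reported here by name. Alternatives were single runs, limits of 0.1 and 5, a pseudocount of 1 in place of 0.01, other gene sets for percentiles, TSS windows of 1 and 5 kb, flanks of 0, 5 and 20 kb, any overlap, and the RefSeq strand. Counting used pandas 2.3.3 and numpy 2.4.6 under Python 3.11.15, intervals scipy 1.17.1 and figures matplotlib 3.10.9.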

Additional observations from a re-analysis of the deposited data

How the results depend on the processing

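Of 78 alternative values for 25 results, 70 stayed within 1.5 times the count, or within the spread of the runs or the 95% interval of the value, and 8 moved. The 18 single-gene run values and the median FPKM by run could not move, because their limit came from the same runs. The RefSeq strand could not change a count either, since it was the same for the members it covers. At an FPKM limit of 5 the members counted fell from 9 to 4 and the other complement genes from 23 to 13. C8A, with a mean of 4.99958, was just under this limit, and its run 2 value of 5.13 was above it. A pseudocount of 1 moved the median log2 FPKM of the members from 2.32 to 2.58. Their median percentile of 63.9 became 61.3 among all named loci and 52.5 among genes with FPKM above 0. When a peak marked each position it touched by 1 bp or more, 2 in place of 1 member had at least 3 trivalent nucleosomes near the TSS. Flanks of 20 kb raised the trivalent nucleosomes in the windows from 15 to 32, and leaving out C5 lowered the marked positions from 159 to 103. The cause was not tested.

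Alternatives for H3K4me3 downstream of the TSS, for H3K27ac only near it, for the 90th percentiles by run, and those with C5 added at its listed end or left out were chosen after seeing the data. The share of marked positions near the TSS with H3K27ac only was 46.4% within 1 kb, 47.2% within 5 kb, 52.3% with any overlap and 42.9% without C8A. With C5 at its listed end, 4 of 9 members had no marked position near the TSS. No paired analysis was possible because each assay has 1 sample. Depth is unknown for every position and FPKM value, so a position without a mark is one with no peak in the lists used here, not one shown to lack the mark.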
